A study of Mus musculus with 4 samples.

Results

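The early muscle genes followed here were Pax3, Pax7, Lbx1, Myf5, Myod1, Myog, Msc, Actc1, Chrna1 and Cdh15, taken by name. Every probe set that the platform annotation gives to exactly 1 of them was used, which made 15 of the 34958 probe sets with 1 symbol, for 10 of 18194 genes. RNA came from the distal limb bud (the autopod, the future hand or foot, dissected as the Hoxd13 expression domain) of C57BL/6 mouse embryos at stage E11.25, with fore- and hindlimb pieces together in a proportion the labels do not give. The 2 Hox13dKO samples were homozygous for loss of Hoxa13 and for HoxDdel, a joint deletion of Hoxd11, Hoxd12 and Hoxd13, and the 2 wild-type samples carried neither. The labels name no Cre driver or transgene, and they do not say how many embryos made up a sample. Each sample was hybridised to 1 array, so 2 arrays per group limit the precision of every value below, and p-values measure the spread between these samples only.

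Limb muscle is not made by the limb bud mesenchyme. Its precursors delaminate from the somites under Pax3 and Lbx1, migrate into the bud guided by Hgf and Cxcl12 from the limb mesenchyme, and there switch on the myogenic basic helix-loop-helix factors in order, with Myf5 and Myod1 fixing the fate and Myog driving differentiation. Genes of the contractile apparatus, the neuromuscular junction and cell adhesion follow. The proximal muscle masses are formed before the autopod receives muscle, so the distal tip of a wild-type bud holds few muscle cells at this stage. In bulk RNA, more cells of a type and more RNA per cell cannot be told apart.

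For the differentiation genes the promoter is shown, since Myog, Actc1, Chrna1 and Cdh15 had higher signals together in Hox13dKO. The windows hold 250 bases before and 50 after the annotated start, from RefSeq, and 6 of the 10 genes had an entry (Pax7 and Myf5 besides these). Capitals mark E-boxes and the CArG box, bound by serum response factor. The E-box pattern, CANNTG, includes the sites bound by the MYOD family and reads the same on both strands. A marked E-box is thus not by itself a MYOD site.
Myog promoter (GRCm38.p6, chr1:134289754-134290053, plus strand): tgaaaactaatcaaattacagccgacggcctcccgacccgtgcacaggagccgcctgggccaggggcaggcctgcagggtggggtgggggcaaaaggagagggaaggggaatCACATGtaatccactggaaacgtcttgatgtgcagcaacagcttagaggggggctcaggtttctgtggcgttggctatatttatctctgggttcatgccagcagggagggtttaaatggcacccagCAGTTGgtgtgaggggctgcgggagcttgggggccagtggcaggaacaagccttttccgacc
Actc1 promoter (GRCm38.p6, chr2:114052826-114053125, minus strand): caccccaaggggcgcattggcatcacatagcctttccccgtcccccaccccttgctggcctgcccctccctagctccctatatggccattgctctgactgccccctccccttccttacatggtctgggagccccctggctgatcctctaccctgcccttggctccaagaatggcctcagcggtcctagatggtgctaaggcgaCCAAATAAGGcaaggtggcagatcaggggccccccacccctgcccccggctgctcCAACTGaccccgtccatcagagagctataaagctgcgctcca
Chrna1 promoter (GRCm38.p6, chr2:73580289-73580588, minus strand): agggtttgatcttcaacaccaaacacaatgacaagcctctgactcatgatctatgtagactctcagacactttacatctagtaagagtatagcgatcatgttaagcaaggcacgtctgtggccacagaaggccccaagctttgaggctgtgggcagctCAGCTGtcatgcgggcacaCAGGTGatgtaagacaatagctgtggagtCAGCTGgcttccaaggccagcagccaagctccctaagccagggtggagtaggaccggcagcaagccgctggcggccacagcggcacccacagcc
Cdh15 promoter (GRCm38.p6, chr8:122848124-122848423, plus strand): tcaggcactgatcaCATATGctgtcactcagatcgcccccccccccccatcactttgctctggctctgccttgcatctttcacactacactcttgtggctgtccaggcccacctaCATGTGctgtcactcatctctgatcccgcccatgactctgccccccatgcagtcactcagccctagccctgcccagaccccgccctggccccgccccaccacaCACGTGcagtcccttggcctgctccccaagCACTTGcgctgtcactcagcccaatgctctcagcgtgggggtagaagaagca
Chrna1 held 3 E-boxes within 92 bases before its start, 2 of them CAGCTG, which starts at -92 and -44. Of 32851 promoters of this length, 72.3% held at least 1 CANNTG, 16.3% held CAGCTG and 1.9% held it at least 2 times, counting both strands. Actc1 held 1 CArG box, starting at -47, a motif found in 1.63% of promoters, and 1 E-box inside the transcribed part. Myog held 2 E-boxes and Cdh15 held 4, none of them CAGCTG. Of all these promoters, 39.6% held at least 2 CANNTG, 17.6% at least 3 and 6.49% at least 4. No E-box, CArG box or MEF2 box was found in the windows of Pax7 and Myf5. These matches describe the letters of the windows and were not tested against binding.

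Array values are the signals that the authors deposited, in linear units scaled alike on all arrays, with a median of 66.1 and 81.2 in Hox13dKO, against 65.8 and 85.7 in wild type. Signals under 14.1 units were raised to that floor before log2 was taken. Where the geometric mean over the 4 arrays reached 39.6 units, a probe set entered the limma test, with Benjamini-Hochberg adjustment over all 27022 of them, at a threshold of 0.05. All 4 targeted genes were lower in Hox13dKO and passed, but not all were near the floor. Hoxd13 read 5.79 and 9.58 in Hox13dKO against 14540 and 16116 in wild type. Hoxd12 read 5.22 and 33.5 in Hox13dKO against 1208 and 2171 in wild type, and Hoxa13 read 52.4 and 58.0 in Hox13dKO against 842 and 1463 in wild type. Hoxd11 still read 348 and 454 in Hox13dKO, against 1831 and 1745 in wild type, brighter in Hox13dKO than every member but Actc1; whether its probes lie in the deleted part was not tested. Mesenchymal genes that define the limb bud were bright in both genotypes, Prrx1, the brightest, reading 11938 and 9125 in Hox13dKO against 7952 and 7008 in wild type. Of 8 such genes 3 had a positive log2 difference, Prrx1 among them, and the median was -0.11.

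In wild type the early muscle genes were dim beside these. The brightest probe set of each lay there between 4.71 and 116 units. Detection calls were not used here, so signals near the array median are not shown to be above background. The 10 tested probe sets covered 8 of the 10 genes, as Pax7 and Msc had none. Among these 10 probe sets, 1 passed the threshold as higher in Hox13dKO, that of Actc1, and 0 as lower in limma (4 higher and 0 lower at an unadjusted p under 0.05). Over all probe sets tested, 0.207% passed in either direction, 0.115% as higher and 0.0925% as lower, with 3.80% and 2.46% at an unadjusted p under 0.05. Both Hox13dKO arrays lay above both wild-type arrays for 10 of the 15 probe sets, a separation found in 13.8% of all probe sets, and for 8 of the 10 genes by their brightest probe set. For none of the 15, with values at the floor tied, were both Hox13dKO arrays below, as was found in 15.5% of all probe sets. Among the tested probe sets the counts were 7 of 10 above and 0 of 10 below, beside 16.3% and 18.3% of all tested. For 2 of these 10 probe sets, that of Myog and the second of Pax3, the wild-type mean was below the level for testing, so that they were tested only through Hox13dKO. Of the other 8, 6 lay above on both Hox13dKO arrays and 3 had an unadjusted p under 0.05. All 15 read higher in replicate 2 than in replicate 1 of Hox13dKO, and for 13 of them Hox13dKO replicate 2 was the highest of the 4 arrays. The share over all probe sets is not given here. Replicate 2 of Hox13dKO was also the higher for 7 of 7 ectoderm genes and 6 of 6 endothelial genes, but for 2 of 8 genes that define limb mesenchyme.

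**Figure D1:**
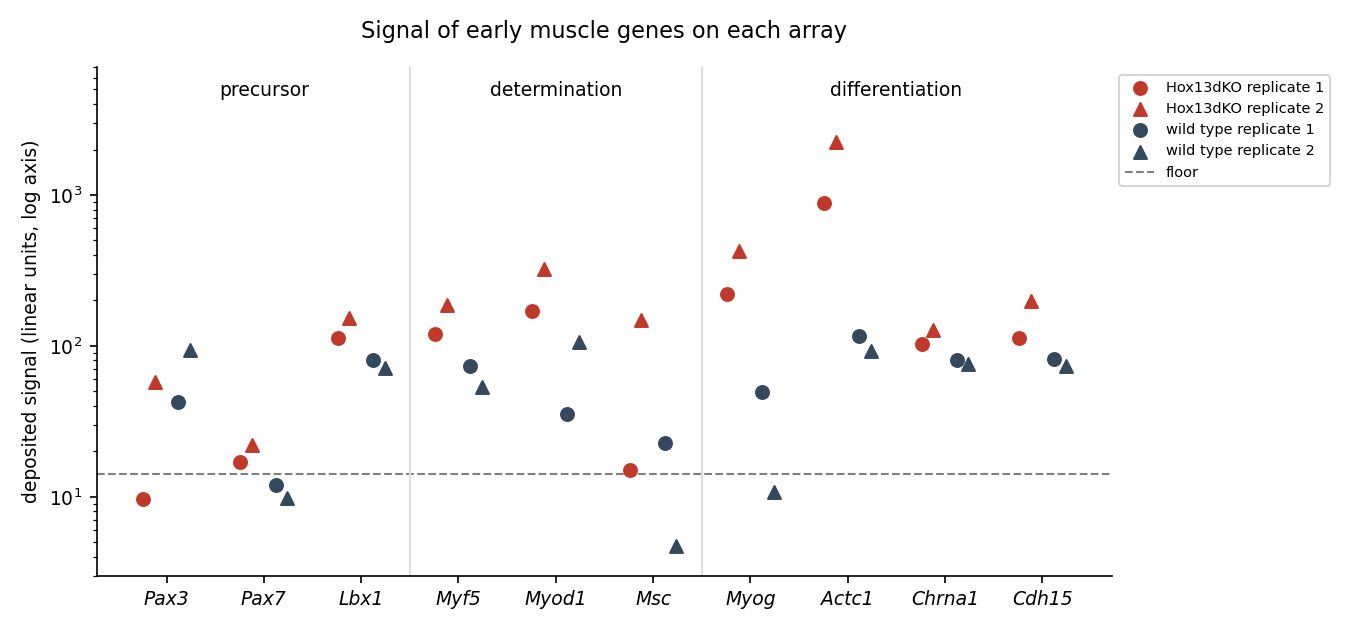
Deposited signal of the brightest probe set of each early muscle gene, on a log axis, for the 2 Hox13dKO arrays (red, left) and the 2 wild-type arrays (dark, right); the dashed line is the floor of 14.1 units. Actc1 reaches 880 and 2252 in Hox13dKO against 116 and 92.7 in wild type, while the groups overlap for Pax3 and Msc.

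Among the differentiation genes, Actc1, the cardiac alpha actin that is also the main sarcomeric actin of embryonic skeletal muscle, was the brightest. It read 880 and 2252 units in Hox13dKO, against 116 and 92.7 in wild type. Both Hox13dKO arrays were far above both wild-type arrays, and they differed between themselves 2.56-fold. Actc1 rose by 3.76 ± 0.41 on the log2 scale (SE, n = 2 each), 13.6-fold, with an adjusted p = 0.0182 in limma. Here and below, SE is the moderated one from limma, which draws on the spread of all tested probe sets. For Actc1 it was 0.52 without the intensity trend and 0.58 without the filter. With 1 array left out, its group is a single array assumed to vary as the other group does, here and below. Without Hox13dKO replicate 2 Actc1 differed by 3.08 and did not pass (adjusted p = 0.119), and without Hox13dKO replicate 1 by 4.44 (adjusted p = 0.0178). Actins are near-identical paralogs. Whether the Actc1 probes also read another actin was not tested; Acta1, the later skeletal actin, read 103 and 235 in Hox13dKO against 45.3 and 72.3 in wild type, and Acta2, the smooth muscle actin also found in early myotubes, read 798 and 2009 in Hox13dKO against 604 and 522 in wild type.

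Myog, the factor that starts terminal differentiation, read 222 and 424 in Hox13dKO, against 49.3 and 10.7 in wild type. Both Hox13dKO arrays lay above both wild-type arrays, of which wild type replicate 2 lay below the floor. With a wild-type geometric mean of 26.4 units Myog reached the level for testing only through Hox13dKO, so its tests are no independent support for a difference. The log2 difference was 3.54 ± 0.67 (SE, n = 2 each) and did not pass (adjusted p = 0.132 in limma). It stayed between 2.64 and 4.44 with each array left out in turn, but its test moved with them. Leaving out wild type replicate 1 or 2 gave adjusted p-values of 1.14e-05 and 0.00057, and leaving out Hox13dKO replicate 1 or 2 gave 0.453 and 0.835. Myog passed after median centring (adjusted p = 2.03e-07 in limma), with a log2 difference of 3.47 and an SE of 0.50. There the weight that limma gives to the spread of all probe sets, its prior degrees of freedom, was 127 in place of 6.05.

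Cdh15, encoding M-cadherin, the adhesion molecule of myoblasts, read 113 and 197 in Hox13dKO against 81.7 and 73.0 in wild type. The groups did not overlap, and the log2 difference of 0.95 ± 0.44 did not pass (SE, n = 2 each; adjusted p = 0.843 in limma). Chrna1, the alpha subunit of the muscle acetylcholine receptor, read 104 and 127 in Hox13dKO against 81.0 and 75.5 in wild type. It had the smallest log2 difference of the differentiation genes, 0.55 ± 0.43 (adjusted p = 0.929), also without overlap. Within the class the log2 differences thus spanned 0.55 to 3.76, with Myog and Actc1 at the top and both surface protein genes below 1.

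Of the determination genes, Myod1, a master regulator of muscle fate, read 169 and 324 in Hox13dKO against 35.5 and 107 in wild type by its brighter probe set. The groups did not overlap, and the log2 difference of 1.93 ± 0.59 did not pass (SE, n = 2 each; adjusted p = 0.514 in limma). It passed after median centring (adjusted p = 0.00413) and without wild type replicate 2 (adjusted p = 0.002, log2 difference 2.72), and was 1.14 without wild type replicate 1. Its other probe set, too dim to be tested, read 24.03 and 51.3 in Hox13dKO against 10.1 and 13.9 in wild type, both wild-type arrays being under the floor, which puts it at least 2.49-fold higher.

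Myf5, the first of the myogenic factors to be expressed in the somite, read 120 and 187 in Hox13dKO against 73.7 and 53.7 in wild type. The arrays separated by genotype with a log2 difference of 1.25 ± 0.46 that did not pass (SE, n = 2 each; adjusted p = 0.674 in limma). Msc, a bHLH repressor of undifferentiated myoblasts known as MyoR, read 14.9 and 149 in Hox13dKO against 22.8 and 4.71 in wild type. Its high value stood on Hox13dKO replicate 2 alone, the groups overlapped, and it was too dim to be tested.

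The precursor genes differed among themselves and between their own probe sets. By its brightest probe set Pax3, the paired-box factor of migrating precursors, read 9.66 and 57.2 in Hox13dKO against 42.4 and 94.6 in wild type, a log2 difference of -1.16 ± 0.88 (SE, n = 2 each; adjusted p = 0.928 in limma). That value rested on Hox13dKO replicate 1, which lay below the floor: without it the difference was -0.15, and without Hox13dKO replicate 2 it was -2.17. A second Pax3 probe set read 26.2 and 70.9 in Hox13dKO against 30.6 and 43.8 in wild type (log2 difference 0.24 ± 0.79, adjusted p = 0.982). The remaining Pax3 probe set, not tested for its dim signal, read 47.6 and 48.0 in Hox13dKO against 31.0 and 26.4 in wild type, with both Hox13dKO arrays above. The 3 probe sets therefore gave Pax3 no common direction.

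Lbx1, the homeobox gene of precursors that enter the limb, read 113 and 152 in Hox13dKO against 80.2 and 71.8 in wild type, a log2 difference of 0.79 ± 0.43 without overlap (SE, n = 2 each; adjusted p = 0.883 in limma). Its other probe set read 74.7 and 159 in Hox13dKO against 98.5 and 81.8 in wild type, where the groups overlapped (log2 difference 0.28 ± 0.50, adjusted p = 0.974). Pax7, which marks the later resident progenitors, was near or under the floor on all arrays. Its brighter probe set read 17.0 and 22.04 in Hox13dKO against 12.0 and 9.77 in wild type, at least 1.37-fold higher relative to the floor, and its other read 1.44 and 3.02 in Hox13dKO against 10.2 and 14.2 in wild type. Neither Pax7 probe set reached the level for testing.

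**Figure D2:**
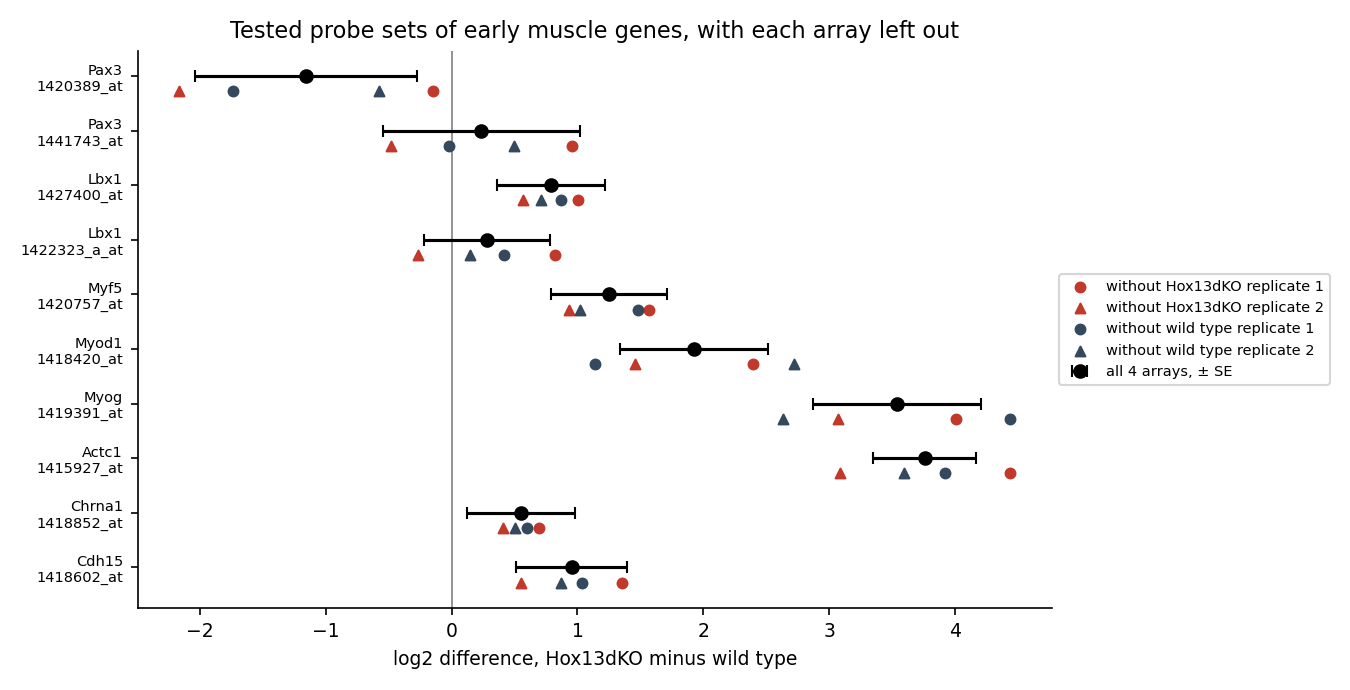
Log2 difference, Hox13dKO minus wild type, of the 10 tested probe sets of early muscle genes (black, ± moderated SE) and the same with each array left out (coloured, below each bar). Actc1 and Myog stay above 2.6 throughout, and the second probe sets of Pax3 and Lbx1 cross 0.

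To set precursor against differentiation genes, each gene was centred on its own wild-type mean and averaged within its class on every array, with no test, as the genes were chosen with results known. The differentiation class (4 genes) stood at 1.78 and 2.62 log2 units in Hox13dKO, against 0.30 and -0.30 in wild type. The determination class (3 genes) stood at 0.71 and 2.34 in Hox13dKO, against -0.07 and 0.07 in wild type. The precursor class (3 genes) stood at -0.44 and 0.50 in Hox13dKO, on either side of the wild-type arrays at -0.17 and 0.17. Differentiation minus precursor came to 2.22 and 2.12 in Hox13dKO, against 0.47 and -0.47 in wild type. The Hox13dKO arrays were thus close to each other in this contrast although each class alone was higher in replicate 2. That closeness depends on Pax3, at -2.17 on Hox13dKO replicate 1, where it was raised to the floor, and at -0.15 on replicate 2. The contrast was not computed without Pax3. With all probe sets of a gene averaged, the precursor class read -0.12 and 0.58 in Hox13dKO, against -0.05 and 0.05 in wild type. The median log2 differences were 2.25 for differentiation, 1.39 for determination and 0.46 for precursor genes, beside -0.02 over all 18192 genes measured outside the controls. The determination median is the value of Msc and the precursor median that of Pax7, both too dim to be tested. The classes overlapped, as Lbx1 at 0.79 lay above Chrna1 at 0.55. The precursor mean of -0.44 came from Pax3, below the floor on that array, while Lbx1 and Pax7 were above their wild-type means there. Leaving out the members too dim to be tested turned the precursor median to -0.18, Pax7 being the member removed.

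**Figure D3:**
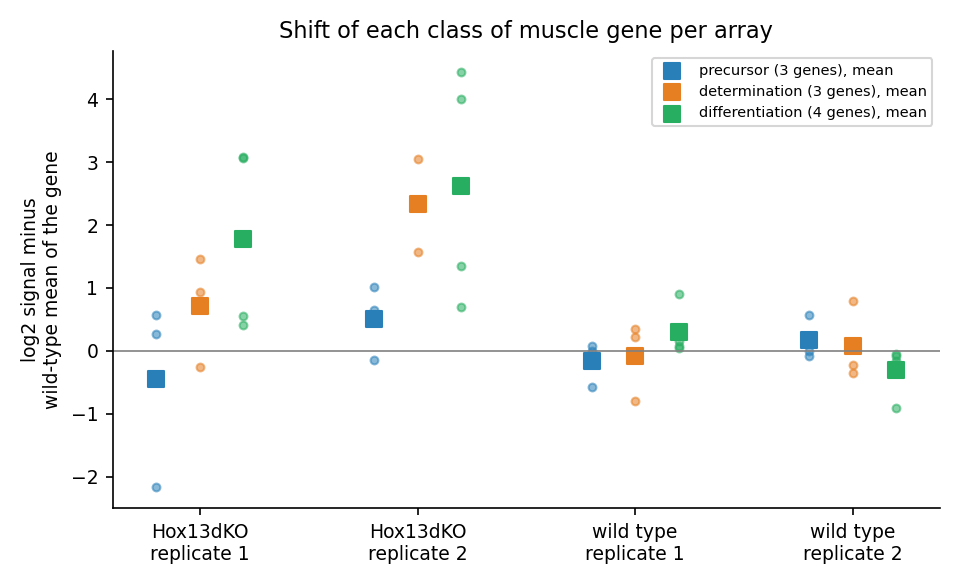
Log2 signal minus the wild-type mean of the same gene on each array; small points are genes, squares the mean of each class. In Hox13dKO the differentiation mean is at 1.78 and 2.62 and the precursor mean at -0.44 and 0.50.

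Most sarcomere genes outside the early set had higher signals in Hox13dKO, though none passed. Of 25 such genes measured, 21 had a positive log2 difference and 3 a negative one, with a median of 1.03, against 44.5% of all genes positive and a median of -0.02. The Hox13dKO arrays lay above both wild-type arrays for 15 of the 25 and below for 3, beside 13.8% and 15.5% of all probe sets. Of the 17 bright enough to be tested, 0 passed in limma, with 10 higher and 1 lower at an unadjusted p under 0.05. As 6 of these 17 reached the level for testing only through Hox13dKO, the counts over all 25 are given to avoid that filter. They still use the brightest probe set of each gene, chosen by its mean over all 4 arrays. A probe set high in Hox13dKO can thus be favoured there too. Other probe sets ran both ways. Myl4 had log2 differences of 1.84 by its brightest probe set and -0.79 by its other. Ttn had 0.15 by its brightest and 1.81 by another. The median over the 17 was 1.28, and 0.84 without Hox13dKO replicate 2.

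Myl1, the fast essential myosin light chain, read 123 and 170 in Hox13dKO against 24.4 and 8.83 in wild type (log2 difference 2.96 ± 0.63, SE, n = 2 each; adjusted p = 0.202 in limma). Myh3, the embryonic myosin heavy chain, read 163 and 208 in Hox13dKO against 39.6 and 60.1 in wild type (1.92 ± 0.46; adjusted p = 0.268). Tnni2, the fast inhibitory troponin subunit, read 112 and 96.4 in Hox13dKO against 24.2 and 8.14 in wild type (2.49 ± 0.68; adjusted p = 0.389). Myl1 and Tnni2, each with a wild-type array under the floor, are among the 6 tested only through Hox13dKO, and their sizes depend on that floor. In all 3 the Hox13dKO arrays lay above both wild-type arrays, and in Tnni2 replicate 2 of Hox13dKO was the lower of the pair.

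Other sarcomere genes, named after their values were seen, ran in both directions. Tnnt2, the cardiac troponin T that embryonic skeletal muscle also makes, read 77.9 and 146 in Hox13dKO, against 12.6 and 7.999 in wild type, both below the floor, so that it was at least 7.56-fold higher; another Tnnt2 probe set ran the other way (log2 difference -0.90, not tested). Tnnc2, the fast troponin C, was at least 4.63-fold higher, at 34.8 and 122.5 in Hox13dKO against 6.87 and 6.20 in wild type. The 3 negative members were Ckm, the muscle creatine kinase (38.1 and 6.08 in Hox13dKO against 72.7 and 155 in wild type; log2 difference -2.19 ± 0.75, adjusted p = 0.611), Myh7 and Tnnt3. A dimmer Ckm probe set, not tested, read 56.5 and 18.6 in Hox13dKO against 6.31 and 14.9 in wild type, so Ckm had no common direction. Myh7, the slow myosin heavy chain, read 13.1 and 16.7 in Hox13dKO against 17.3 and 81.2 in wild type, and Tnnt3, the fast troponin T, lay under the floor on both Hox13dKO arrays and at 20.1 and 18.6 in wild type.

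Among other regulators, none passed the test. Other precursor and migration genes had a median log2 difference of -0.15 over 7 measured (3 positive, 4 negative; 0 of 7 passed in limma, with 1 higher and 0 lower at an unadjusted p under 0.05). Meox2, a homeobox gene of limb muscle precursors, read 1993 and 2490 in Hox13dKO against 1544 and 1113 in wild type (0.76 ± 0.20; adjusted p = 0.326). Cxcr4, the Cxcl12 receptor, read 106 and 186 in Hox13dKO against 83.2 and 82.0 in wild type (0.76 ± 0.44; adjusted p = 0.895), and Six4, a homeobox activator of Myog, read 814 and 562 in Hox13dKO against 1150 and 782 in wild type (-0.49 ± 0.25; adjusted p = 0.873). The 4 Six4 probe sets spanned -0.69 to 1.40 and so gave no common direction. MEF2 factors and later regulators had a median of 0.29 over 7 measured, and 0 of the 5 tested passed in limma (1 higher at an unadjusted p under 0.05, Cdkn1c, at 10114 and 12110 in Hox13dKO against 7070 and 9323 in wild type). Myf6 and Mymk, the late myogenic factor and the fusion protein myomaker, were too dim to be tested. Myf6 read 5.04 and 35.9 in Hox13dKO against 22.01 and 15.0 in wild type, and Mymk read 2.98 and 62.3 in Hox13dKO against 30.0 and 5.75 in wild type. The other acetylcholine receptor and synapse genes were dim too: 1 of 6, Chrnb1, could be tested, and it read 66.3 and 39.9 in Hox13dKO against 72.7 and 43.2 in wild type.

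Of the limb-side signals for muscle precursors, Cxcl12 rose. It read 1544 and 1258 in Hox13dKO against 527 and 500.1 in wild type, 2.71-fold higher (log2 difference 1.44 ± 0.18, SE, n = 2 each; adjusted p = 0.0343 in limma), and its second probe set gave 1.45 ± 0.18 (adjusted p = 0.0343). Hgf, the ligand of Met, read 88.4 and 72.4 in Hox13dKO against 66.4 and 86.7 in wild type, with overlap. Its other probe sets gave log2 differences of 2.05 ± 0.76 (adjusted p = 0.674) and 0.03 ± 0.73 (adjusted p = 0.998).

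Markers of other tissues were set beside the muscle genes. Of the heart muscle genes, 1 of 6 was positive, the summed signal was 144 and 199 in Hox13dKO against 308 and 254 in wild type, and the median log2 difference was -0.81. The 2 bright enough to be tested went opposite ways, with neither passing: Tnni3, the cardiac troponin I, read 50.3 and 81.6 in Hox13dKO against 50.3 and 11.0 in wild type, and Nkx2-5, a cardiac homeobox factor, read 43.6 and 51.3 in Hox13dKO against 119 and 57.0 in wild type. Their median was 0.23. Smooth muscle genes split, with 3 of 6 positive. Their summed signal was 1219 and 2494 in Hox13dKO against 1108 and 913 in wild type, most of it from Acta2. Actg2, too dim to be tested, was higher at 51.92 and 52.15 in Hox13dKO against 19.14 and 7.68 in wild type. Tagln was lower at 60.4 and 80.5 in Hox13dKO against 88.5 and 112 in wild type. Smtn overlapped, at 277.5 and 323.4 in Hox13dKO against 356.2 and 255.7 in wild type, and Myh11 and Cnn1 were near or under the floor. Schwann cell and neural crest markers, included because Pax3 is also made there, had 3 of 4 positive with a median of 0.30, and Erbb3 read 532 and 721 in Hox13dKO against 494 and 436 in wild type. Endothelial genes had 6 of 6 positive, with a median of 0.34 and sums of 2621 and 3372 in Hox13dKO against 2304 and 2355 in wild type.

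Markers of the proximal limb, where the muscle masses lie, were higher together with the muscle genes. All 6 had positive differences (median 0.98), beside 44.5% of all genes, and 5 of them did not overlap, beside 16.3% of tested probe sets, with summed signals of 9629 and 9498 in Hox13dKO against 4592 and 3498 in wild type. Shox2, needed in the upper limb segments, passed at 1.71 ± 0.23 (SE, n = 2 each; adjusted p = 0.0432 in limma). Between the Hox13dKO arrays the members of this list ran both ways, Tbx18 reading 4692 and 3284 and Pkdcc 166 and 334, with 4 of 6 higher in replicate 2. The summed signal of the differentiation genes, most of it from Actc1, was 1319 and 2999 in Hox13dKO against 328 and 252 in wild type. Tbx5, the forelimb T-box gene, read 661 and 839 in Hox13dKO against 261 and 515 in wild type (1.02 ± 0.32; adjusted p = 0.54), and Tbx4, its hindlimb counterpart, read 426 and 391 in Hox13dKO against 288 and 378 in wild type. The part that the level of the dissection or the share of fore- and hindlimb has in the muscle result was not tested. The gap between Hox13dKO replicates also varied with brightness. Among probe sets at 40 to 100 units, replicate 2 exceeded replicate 1 by a median of 0.30 log2 units in Hox13dKO and of 0.38 in wild type, and 20% of them were over 2-fold higher in Hox13dKO replicate 2. At 100 to 200 units the medians were 0.11 in Hox13dKO and 0.20 in wild type, and 6.47% were over 2-fold higher in Hox13dKO replicate 2. At 200 to 1000 units, where Actc1 falls by its mean over the 4 arrays though only 1 array reads in that range, the medians were -0.02 in Hox13dKO and 0.04 in wild type, and 0.991% of probe sets had such a gap.

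**Figure D4:**
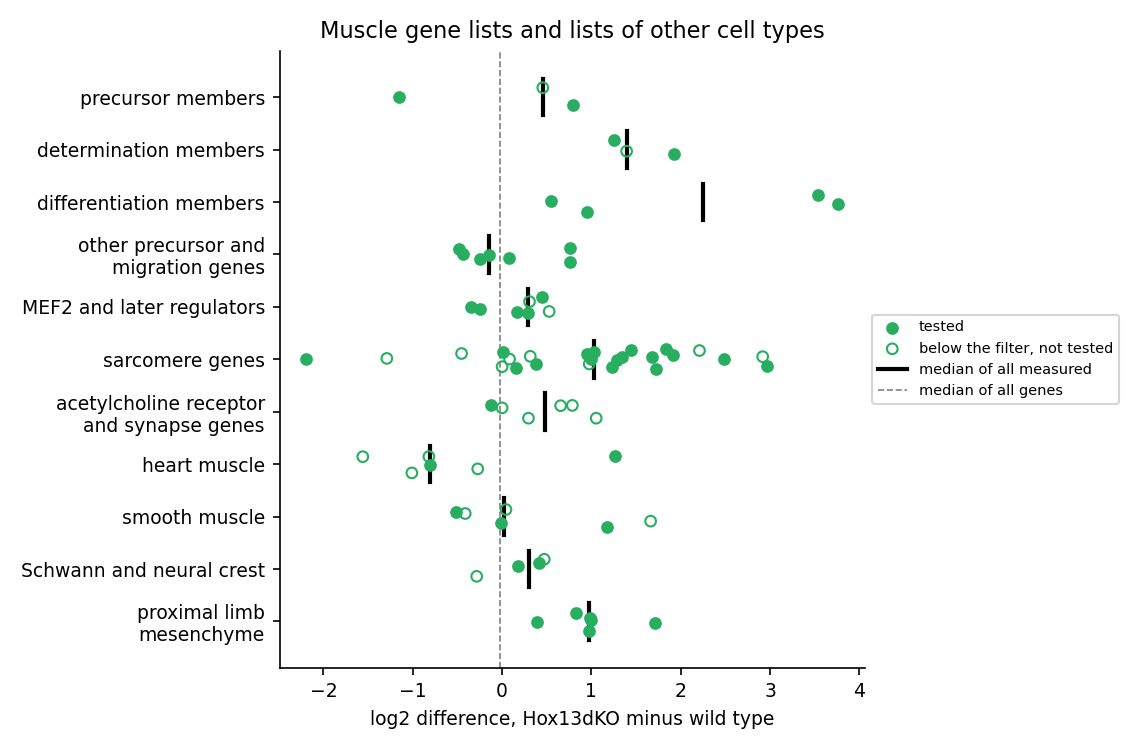
Log2 difference, Hox13dKO minus wild type, of the brightest probe set of each gene in the muscle lists and in lists of other tissues (filled where tested, open where too dim), with the median of each list (bar) and of all genes (dashed). The sarcomere median is at 1.03, that of heart muscle genes at -0.81.

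Among tested genes that are not members, those whose centred profile over the 4 arrays lay nearest to that of Actc1 were Hoxd3os1, a transcript of the HoxD cluster, at a Euclidean distance of 0.93 log2 units, Hoxa7 (1.06), Nos1ap, an adaptor of neuronal nitric oxide synthase (1.15), Myl1 (1.33) and Hoxc4 (1.42). For scale, the length of Actc1's own profile was 5.41. Nearest to Myog (length 5.21) were Elmod1 (0.98), Hoxd3os1 (1.02), Bhlhe40, a bHLH repressor (1.10), Myl1 (1.14) and Nos1ap (1.49). The members themselves were left out of this search; Actc1 and Myog lay 1.13 apart, as near as these neighbours. Of the other muscle lists, Myl1 was among both sets of 5. Hoxa7, Nos1ap, Myl1 and Hoxc4 read below the level for testing on both wild-type arrays, and Bhlhe40 did so by its wild-type mean. These genes entered the search only through Hox13dKO, so their nearness is no independent support for a difference. Nos1ap and Hoxc4 lay under the floor on both wild-type arrays and Myl1 on wild type replicate 2, so their distances depend on that floor. With 4 arrays the likeness is a description of these samples.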

How the data were processed

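Expression was measured on 4 Affymetrix arrays, 2 Hox13dKO and 2 wild type. The deposited values are 1 linear intensity per probe set, made by the authors with MAS5 per the submitters' processing notes (version not given in the sources used here), with a 2% trimmed mean of 500.003 on each array. Scanner data and detection calls were not used here. The 64 control probe sets were left out. Log2 was taken above a floor at the 20th percentile of all values (14.1), probe sets at or above the 40th percentile of mean log2 signal were tested, and the genotypes were then fitted in limma 3.58.1 under R 4.3.3 (lmFit, eBayes with trend, two-sided, 2 residual and 6.05 prior degrees of freedom), with no covariate, Benjamini-Hochberg adjusted over all 27022. A gene stands by its brightest probe set over the 4 arrays unless said otherwise. That choice used both genotypes, so it can favour a probe set for being high in 1 of them. Symbols come from the platform annotation, where 932 probe sets had several symbols and 9211 none. The fit was tested on simulated arrays.

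The members and lists were chosen with earlier results of these data known. Named are all members, up to 3 genes of lowest p and any past the threshold per list, Hgf, Cxcl12, and the 5 nearest profiles to Actc1 and to Myog; other names were chosen after their values were seen, as were the filter on class members and the lists' examples Acta1, Prrx1 and Tbx4. Alternatives tried were median centring, quantile normalization, a pseudocount of 16 or no floor, no or a stricter filter, eBayes without trend or robust, a replicate block, 1 probe set per gene, no cross-hybridising probe sets and each array left out. Figures were drawn with matplotlib 3.10.9.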

Additional observations from a re-analysis of the deposited data

How the results depend on the processing

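The number of probe sets called among all tested, 56 (31 higher, 25 lower), was 202 after median centring (136 higher, 66 lower), 418 with the replicate block, 95 with 1 probe set per gene, 1 without the trend and 0 without the filter (limma; 3159 probe sets had an unadjusted p below 0.05), and 11 to 525 with an array left out. Called member probe sets, 1 as reported, numbered 3 after median centring and with the replicate block (Actc1, Myod1 and Myog each time), 0 without the filter and 0 without the trend (2 of 15 and 6 of 10 had an unadjusted p below 0.05), and 0 to 3 with an array left out, the 0 being without Hox13dKO replicate 2. The prior degrees of freedom that limma estimated were 6.05 as reported, 127 after median centring, 10.1 with the block, 1.997 without the trend, 0.977 without the filter, and 28.8 and 30.1 without wild type replicate 1 and 2. Actc1 had the same log2 difference without the filter (adjusted p = 0.413) and without the trend (adjusted p = 0.591) and lost its call there. Groups share replicate numbers by name only: their replicate differences correlated at 0.198 over the tested probe sets, and with 2 numbers this does not pair the samples. With the replicate block Myog had an adjusted p = 0.0131 and Myod1 one of 0.03. The second Pax3 probe set ranged from -0.48 (without Hox13dKO replicate 2) to 0.96, with -0.02 without wild type replicate 1, and the second of Lbx1 from -0.27 (without Hox13dKO replicate 2) to 0.82. The precursor median of 0.46 was -0.18 with the filter at the 40th percentile, an alternative added after seeing the data. The differentiation median of 2.25 was 3.76 with the stricter filter, which left Actc1 alone and no gene of the other classes. The median of other precursor and migration genes ranged from -0.17 to 0.18 with an array left out, the positive value being without wild type replicate 2. The sarcomere median of 1.28 was 0.69 with the stricter filter, which kept 4 genes, and 0.84 to 1.80 with an array left out. For acetylcholine receptor and synapse genes, with Chrnb1 alone tested, -0.12 became 0.48 without the filter and ranged from -0.50 to 0.25 with an array left out, and the stricter filter left none. The other 126 values of single member probe sets kept their direction and side of the threshold, or stayed within the spread between replicates. Of the counts and medians, 91 were taken as unchanged, which for a count meant staying within a set ratio of the main count. The medians among them kept their direction. Most members lie near the array median, where the dim signal limits precision. The cause of these changes was not tested.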
